A study of Mus musculus with 5 samples.

Results

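The data described here are the places, far from any start of a protein-coding gene, where chromatin came down with the long non-coding RNA *Paupar* in N2A cells, the mouse neuroblastoma line also called neuro 2A. Of 2849 peaks in the deposited list, 635 had a midpoint over 100 kb from the nearest start of a protein-coding gene, on chromosomes 1 to 19 and X, and these distal peaks are the subject of the text. They make up 22.3% of the 2848 peaks on these chromosomes (95% Wilson interval, 20.8 to 23.9%). Both peaks inside gene bodies and peaks between genes were kept, because the rule used the distance alone.

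The peaks come from CHART-Seq, in which crosslinked chromatin is hybridised with biotinylated oligonucleotides against an RNA, and the DNA freed by RNase H is sequenced. There were 2 pull-downs with oligonucleotides against *Paupar*, 2 control pull-downs with an oligonucleotide of the *Escherichia coli LacZ* sequence and 1 input DNA library, all from N2A cells with no treatment named in the labels. This is a single line, and no group of cells lacks *Paupar*. The file used here is 1 list, with coordinates and a score per peak and nothing per library. No replicate error could therefore be computed and no difference was tested, the read depth behind each peak is unknown, and the intervals given below cover counting error only and treat each peak as independent, which neighbouring peaks may not be.

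*Paupar* is transcribed upstream of *Pax6*, the gene of a transcription factor that controls growth and differentiation of neural progenitors. Gene deserts are long stretches without protein-coding genes, and many of them flank genes of developmental transcription factors and hold enhancers that act over long distances. The longest genes of mammals owe their length to introns, and many of them encode adhesion molecules, receptors and channels of neurons. A peak far from a gene start can thus lie in a desert or deep in an intron, and the nearest start need not be that of the gene in which it lies.

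The central 300 bases of the distal peaks with the highest scores are shown first, because the strongest site is a tandem repeat and the next ones are not. Coordinates are of NCBIM37, the assembly that mm9 denotes, and the plus strand is given. Capitals mark stretches of at least 40 bases in which a unit of up to 12 bases is repeated exactly.
Gap between *1700018L24Rik* and *A230072I06Rik*, chr8:12131551-12131850: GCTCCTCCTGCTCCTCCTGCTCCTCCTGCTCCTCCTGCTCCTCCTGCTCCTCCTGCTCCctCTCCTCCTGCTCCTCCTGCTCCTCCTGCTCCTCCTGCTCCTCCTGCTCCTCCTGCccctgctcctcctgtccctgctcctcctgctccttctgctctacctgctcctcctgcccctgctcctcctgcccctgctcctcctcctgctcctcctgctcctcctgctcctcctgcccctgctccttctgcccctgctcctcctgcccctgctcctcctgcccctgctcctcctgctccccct
Gap between *Gm4889* and *Dusp4*, chr8:35573004-35573303: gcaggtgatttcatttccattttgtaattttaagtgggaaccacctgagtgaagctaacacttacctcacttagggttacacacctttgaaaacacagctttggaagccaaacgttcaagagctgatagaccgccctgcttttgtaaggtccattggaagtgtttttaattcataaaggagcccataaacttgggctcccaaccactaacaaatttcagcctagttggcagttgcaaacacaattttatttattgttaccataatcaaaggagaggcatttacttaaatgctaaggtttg
Intron of *Thada*, chr17:84698615-84698914: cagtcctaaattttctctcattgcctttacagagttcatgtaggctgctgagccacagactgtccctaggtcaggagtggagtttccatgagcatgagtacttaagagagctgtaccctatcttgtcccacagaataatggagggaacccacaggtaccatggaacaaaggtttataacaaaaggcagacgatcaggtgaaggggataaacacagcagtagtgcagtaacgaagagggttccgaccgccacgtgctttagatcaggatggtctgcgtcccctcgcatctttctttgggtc
The first is a run of cytosine-rich units of 9 bases, and the other two windows hold no such stretch.

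The next sequences are examples of the longest exact matches between a distal peak and a *Paupar* capture oligonucleotide, each with 30 bases on either side. A stretch of 12 nt or more was shared by 14 distal peaks, of which 2 matched over 13 nt and 12 over 12 nt. Both of the former are shown, and of the latter 2 with high scores. Capitals mark the match. Each oligonucleotide has 24 nt and is named by the number in the study's list.
Oligonucleotide 2067, nucleotides 10 to 22 in capitals: gaggcctagTCAAAATATCTCCac
Gap before *Ctnnb1*, chr9:120688073-120688145, match on the minus strand: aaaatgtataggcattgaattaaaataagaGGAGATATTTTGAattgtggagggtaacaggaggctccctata
Oligonucleotide 2067, nucleotides 12 to 24 in capitals: gaggcctagtcAAAATATCTCCAC
Gap between *Celf2* and *Gata3*, chr2:9335344-9335416, match on the plus strand: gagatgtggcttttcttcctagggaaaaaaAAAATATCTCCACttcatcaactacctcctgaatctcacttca
Oligonucleotide 2067, nucleotides 13 to 24 in capitals: gaggcctagtcaAAATATCTCCAC
Gap between *Odz2* and *Mat2b*, chr11:39261810-39261881, match on the plus strand: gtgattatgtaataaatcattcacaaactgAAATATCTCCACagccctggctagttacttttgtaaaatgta
Oligonucleotide 428, nucleotides 13 to 24 in capitals: gcctggaactagATCAAGGCAGAG
Body of *Zfp423*, chr8:90325891-90325962, match on the plus strand: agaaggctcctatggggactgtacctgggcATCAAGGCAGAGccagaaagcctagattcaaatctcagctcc
No match was longer than 13 nt. Of the 14 distal peaks, 10 matched oligonucleotide 2067, 2 matched 254, and 1 each matched 428 and 2041. Of 1270 neighbouring regions of the same width, 0 had a match of 12 nt to 2067, which allows a share of up to 0.236%, and 3, 2 and 2 had one to the others.

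The number of peaks per Mb, with GC content not yet taken into account, fell with distance from a gene start over the whole range. Sequence over 100 kb from any protein-coding start, called eligible sequence here, covers 1064.5 of 2555.8 Mb of unambiguous sequence, or 41.65%. It held 0.597 peaks per Mb (exact Poisson interval, 0.551 to 0.645), against 1.48 per Mb in the rest of the sequence (1.42 to 1.55). Within 5 kb of a start there were 2.29 peaks per Mb, and between 50 and 100 kb there were 1.20. From 100 to 200 kb the density was 0.883 per Mb with 332 peaks, from 200 to 500 kb it was 0.569 per Mb with 238 peaks, from 500 kb to 1 Mb it was 0.272 per Mb with 54 peaks, and beyond 1 Mb it was 0.154 per Mb with 11 peaks. The median distance was 191508 bp and the largest 1686656 bp.

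**Figure D1:**
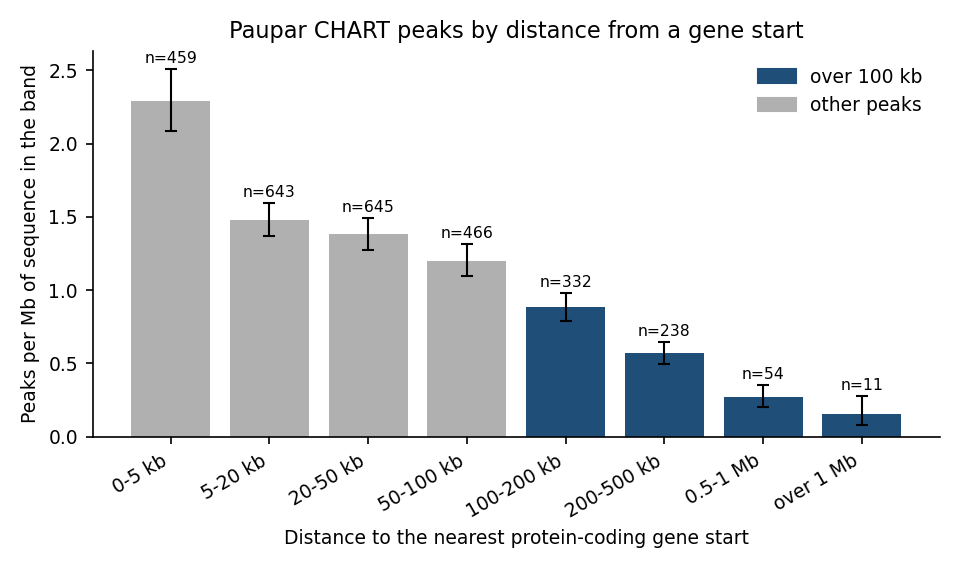
Peaks per Mb of unambiguous sequence in 8 bands of distance to the nearest protein-coding gene start, with exact 95% Poisson intervals and the number of peaks in each band. The density, not adjusted for GC content, goes down from 2.29 per Mb within 5 kb to 0.154 per Mb beyond 1 Mb, with no jump at 100 kb.

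The limit of 100 kb cut through a continuous set of peaks. The 3 peaks just inside it lay 100054 bp from the start of *Tbc1d1*, 100101 bp from that of *Nos1* and 100302 bp from that of *Pax8*, with scores of 23.29, 27.44 and 8.52. The 3 just short of it lay 99869 bp from *St3gal4*, 99851 bp from *Fto* and 99830 bp from *Postn*, with scores of 18.12, 51.84 and 12.17. The site near *Nos1*, which encodes neuronal nitric oxide synthase, lies in the body of *Ksr2*, a scaffold of Ras signalling.

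GC content moved with this fall in density. Windows of 100 kb were sorted into 8 bins of equal size by their GC content. Distal peaks rose from 0.155 per Mb of eligible sequence in the bin of lowest GC content, 32.9 to 37.4%, to 2.07 per Mb in that of highest, 46.6 to 56.5%. The other peaks rose from 0.359 to 2.76 per Mb over the same bins, and were denser than the distal peaks in each bin. Eligible sequence would hold 1186.2 peaks if all peaks followed sequence length, and 749.9 if they followed the GC bins. The observed number was thus 0.535 times the first and 0.847 times the second. For each band of distance beyond 100 kb, the number given by the density of distal peaks in the bins was also computed. In the nearer bands the ratios of observed to given numbers were 1.07 (0.962 to 1.20) and 0.972 (0.853 to 1.10). Farther out they were 0.822 (0.618 to 1.07) and 0.709 (0.354 to 1.27). Every interval includes equality, and the fall beyond 100 kb was much smaller in these ratios than per Mb.

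**Figure D2:**
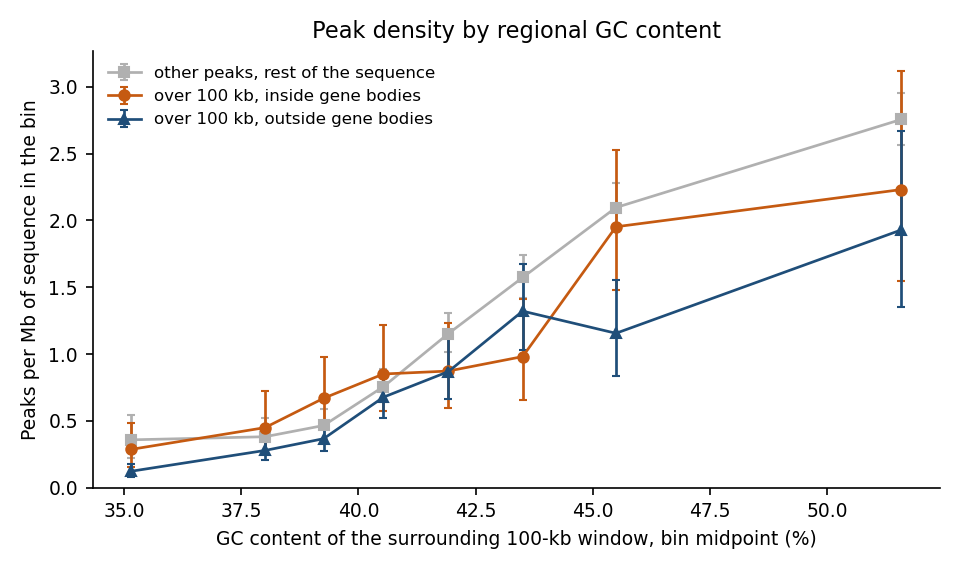
Peaks per Mb against the GC content of the surrounding 100-kb window, at the midpoint of each of 8 bins, with exact 95% Poisson intervals. Distal peaks inside gene bodies, distal peaks outside them and the other peaks all rise with GC content, and the last reach 2.76 per Mb.

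The distal peaks themselves had a median GC content of 45.4% (interval of the median, 44.9 to 46.0%), against 48.8% for the other peaks. Their central 200 bp had a median of 46% and windows 1000 bp to either side a median of 43%. The corresponding medians of the other peaks were 49% and 46.2%, so the rise towards the centre was present in both sets. CpG dinucleotides were scarce: the median of observed over expected was 0.141 in distal peaks and 0.188 in the others. A ratio of at least 0.6, a usual bound for a CpG island, was reached by 1 distal peak and by 61 other peaks, 53 of them within 5 kb of a start. Protein-coding exons were overlapped by 14 distal peaks (2.2%) and by 14.1% of the others. The exonic sites included sites in *Sema5b*, a semaphorin, in *Cacna1b*, a subunit of a presynaptic calcium channel, and in *Insr*, the insulin receptor.

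Scores and widths of distal peaks overlapped almost wholly with those of the other peaks. The median score was 12.06 (interval, 11.35 to 12.62) and the range 5.67 to 135.15, against a median of 12.88 (12.52 to 13.29) elsewhere. The median width was 511 bp (483 to 533) against 572 bp (555 to 593). A score of at least 10 was held by 65.8% of the distal peaks and by 72.1% of the others. The median score was 12.52 between 100 and 200 kb and 10.17 between 500 kb and 1 Mb, where the median width was 383 bp.

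The highest score, 135.15, belonged to the repeat shown above (chr8:12128855-12134546), which is also the widest distal peak at 5692 bp and ranked 3 in the whole list. Its GC content was 59.5% and its CpG ratio 0.0540. It lies 147118 bp upstream of *A230072I06Rik* in a gap of 423057 bp that also held peaks with scores of 82.22 and 20.56. The second, with a score of 124.13 and a width of 4716 bp, lies 182190 bp from *Gm4889* in the gap towards *Dusp4*, which encodes a phosphatase of MAP kinases. The third, with a score of 114.93, lies in *Thada*, 111478 bp upstream of the start of *Zfp36l2*, an RNA-binding protein of mRNA decay. The fifth scored 80.62 and lies in the body of *4930534B04Rik* on chromosome 12. The second widest distal peak, 4790 bp, lies in *Akap7*, an anchor of protein kinase A, and scored 50.74.

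Long exact tandem repeats were not a common feature of these sites. A run of at least 40 bp was found in 55 of 635 distal peaks (8.66%; 6.72 to 11.1%) and in 11.8% of the neighbouring regions of the same width (10.2 to 13.7%). In the strongest peak the longest exact run was 71 bp. The longest run of any distal peak, 130 bp with a unit of 6 bp, lay on chromosome 8 in a peak that scored 15.04.

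Distal peaks were denser inside gene bodies than between genes. Gene bodies held 240 of the 635 (37.8%; 34.1 to 41.6%) and make up 25.6% of the eligible sequence. This gave 0.881 peaks per Mb inside (0.773 to 0.999) and 0.499 per Mb outside (0.451 to 0.550), a ratio of 1.77. With the GC bins as strata the ratio was 1.27. The density was higher inside in every bin except that of 42.66 to 44.35% GC, with 0.982 per Mb inside and 1.32 outside. Distance to a start was not held constant, and its median was 169509 bp inside and 209244 bp outside. From the bins alone, 205 peaks would lie inside gene bodies, which makes the observed number 1.17 times that value (1.03 to 1.33). Scores differed little, with medians of 12.18 inside and 11.93 outside. These counts use 1 start per gene, so a peak in a gene body can lie near a start of another transcript. With every annotated transcript start, 482 distal peaks remained, 23.4% of them inside gene bodies, and the ratio of densities was 1.54.

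Among gaps between protein-coding genes, density went down as length went up. Gaps under 500 kb held 0.933 distal peaks per Mb, gaps of 500 kb to 1 Mb 0.560, gaps of 1 to 2 Mb 0.394 and gaps over 2 Mb 0.179, from 148, 118, 97 and 31 peaks. Of the 67 gaps over 2 Mb with eligible sequence, 20 held a peak. The GC bins alone would give 0.890, 0.634, 0.442 and 0.252 per Mb in the same order, so GC content moved with length. The ratios of the observed numbers to these were 1.05, 0.883, 0.891 and 0.711, and the interval of the last (0.483 to 1.01) includes 1.

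**Figure D3:**
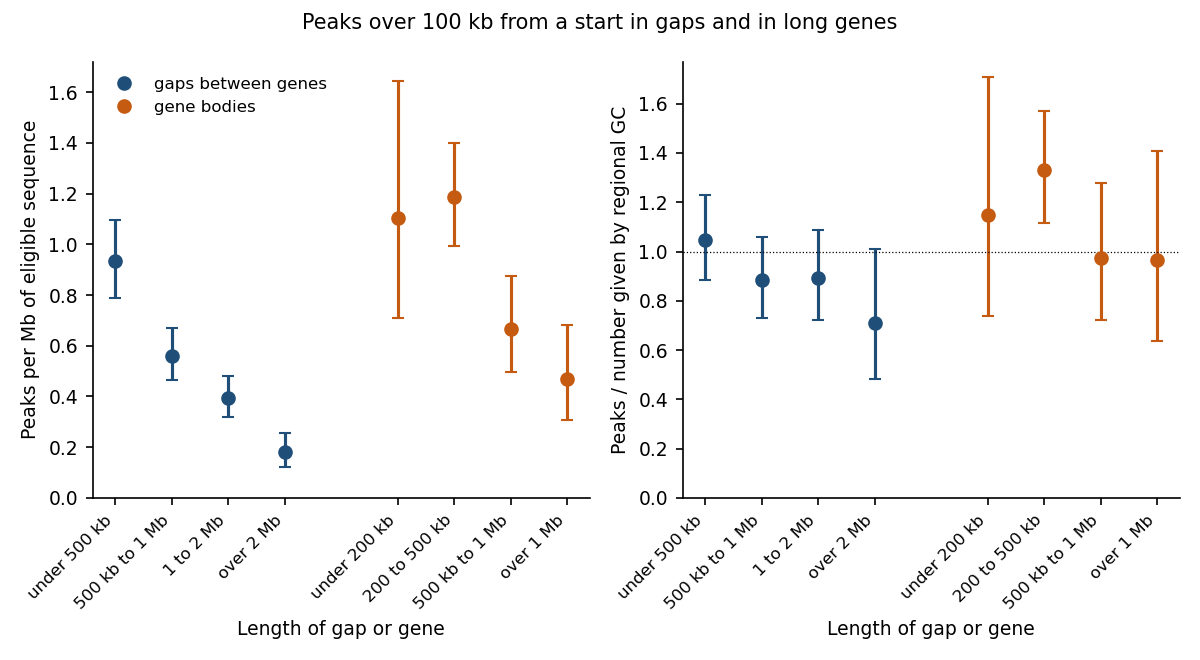
Distal peaks per Mb of eligible sequence (left) and over the number that the regional GC bins would give (right), in gaps between protein-coding genes and in gene bodies by length, with exact 95% Poisson intervals. The fall with length on the left is much smaller on the right, where the points lie between 0.711 and 1.33 and the dotted line marks 1.

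The longest deserts with a distal peak held 1 or 2 each. The gap of 3990630 bp between *4930555F03Rik* and *Aga*, which encodes a lysosomal enzyme, held 2, and so did that of 3800737 bp between *Nudt12* and *Efna5*, the gene of an ephrin ligand in axon guidance. The latter contains the sites farthest from any protein-coding start, 1686656 and 1344250 bp from *Efna5*, narrow peaks of 195 and 201 bp with scores of 9.92 and 7.51. The third in distance lies 1331368 bp from *4930555F03Rik* with a score of 15.31. The gaps from *Zeb2*, a zinc finger repressor of neural crest development, to *Acvr2a*, from *Odz2*, a teneurin, to *Mat2b*, and from *Hace1* to *Grik2*, a kainate receptor, held 1 each. That between *Odz2* and *Mat2b* scored 26.07, lies 1247032 bp from the nearest protein-coding start and holds the match of 12 nt shown above.

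The longest gaps without any peak were of similar kind. The gap of 4519916 bp between *Celf4*, an RNA-binding protein of neurons, and *Pik3c3*, a lipid kinase, held none in 4319.9 kb of eligible sequence, and that between *Olfm4* and *Pcdh17*, a protocadherin, held none in 4243.3 kb. At the mean density of gaps over 2 Mb, fewer than 1 peak would lie in either. A gap of 7198781 bp on chromosome 7 between *Gm5591* and *Gm16387* also held none, but only 63.7 kb of it is eligible, so nothing can be read from it.

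The gap with the most distal peaks was none of these. The 478943 bp between *Gm4889* and *Dusp4* held 8, all within 245462 bp (chr8:35504717-35750178), or 28.6 per Mb of its eligible sequence. From the side of *Gm4889* to that of *Dusp4* their scores were 7.78, 8.01, 124.13, 64.44, 10.63, 12.03, 17.52 and 9.11. Of these, 2 stand far above the rest, and the other 6 lie in the range usual for the list. The gap between *Med13l*, a Mediator subunit, and *Tbx3*, a T-box factor of limb and heart, held 5, with scores of 41.16, 12.26, 9.7, 16.35 and 9.59. Only the last of them was nearer to *Tbx3*, at 336440 bp. The gap between *Tmem182* and *Gm9915* held 5 with scores up to 27.32, and so did that between *Arpp21*, a phosphoprotein of striatal neurons, and *Pdcd6ip*, with scores up to 18.36. The gap between *Dusp10* and *Hlx*, a homeobox gene, held 4 with scores of 25.4, 20.79, 10.6 and 62.29. The gap between *Mtap1b*, a microtubule protein of growing axons, and *Cartpt*, a neuropeptide precursor, held 4 with scores of 15.04, 54.38, 9.02 and 22.87.

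Peaks near genes of developmental regulators were counted next. From a list of such genes known for neighbouring deserts, 145 were in the annotation, and 13 of them were the nearest start to 19 distal peaks. Over all genes, 474 of 22350 (2.12%) were the nearest start to a distal peak. Genes beside deserts have more eligible sequence around them and the list was chosen for that property, so the 2 shares are not comparable. *Pax6* was nearest to 2 peaks, 122039 and 120287 bp upstream, which lie 1752 bp apart in the body of the non-coding gene *Pax6os1* (chr2:105386691-105387336 and chr2:105387531-105390000). Their scores were 10.76 and 19.32, and the second is 2470 bp wide.

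The other 12 regulators of the list had 1 or 2 sites each. *Sox11*, a factor of immature neurons, had sites 137867 and 317849 bp upstream with scores of 10.82 and 9.2. *Isl1*, a LIM homeobox factor of motor neurons, had sites 140525 and 217613 bp upstream with scores of 15.48 and 8.08. *Six3*, a homeobox factor of forebrain and eye, had sites 257576 and 230195 bp upstream with scores of 35.39 and 9.67, both in the body of *1700106N22Rik*. *Mab21l2*, an eye development gene, had sites 130964 and 138247 bp upstream with scores of 7.52 and 19.27, both in the body of *Lrba*. *Klf6*, a zinc finger factor, had sites 127687 and 206663 bp downstream with scores of 14.62 and 30.25. *Sox9*, a factor of cartilage and glia, had a site 243961 bp downstream with a score of 17.55. *Atoh1*, *Bmp5*, *Hand2*, *Myc*, *Sall3* and *Tbx3* had 1 each, from 116520 bp for *Bmp5* to 627776 bp for *Myc*, with scores from 8.13 to 20.1. None of these sites exceeded the score of the site upstream of *Six3*.

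The site in *Sox2ot*, the non-coding gene that overlaps *Sox2*, had a score of 37.42 and a width of 925 bp (chr3:34134647-34135571). Its nearest protein-coding start was that of *Dnajc19*, a mitochondrial protein, at 154866 bp. It held a match of 11 nt to oligonucleotide 2041.

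The 240 peaks inside gene bodies lay in 177 genes, which is 11.6% of the 1524 genes with eligible sequence in their body. Of these genes, 130 held 1 peak, 34 held 2, 11 held 3 and 2 held more. By gene symbol, the start of the host gene was the nearest protein-coding start for 129 of the 240 peaks. For the other 111 a protein-coding gene of another symbol started closer. The 129 include 3 peaks in *Pde4d*, whose nearest start was that of another entry of that symbol. The start of the entry that hosts them lay 1074010 to 1330255 bp away. Genes over 1 Mb held a peak more often, 36.5% of 52, than genes of 500 kb to 1 Mb (24.3%), of 200 to 500 kb (14.3%) and under 200 kb (3.27%). Per Mb of eligible sequence the order was different, with 0.468, 0.666, 1.18 and 1.11 in the same order of length. Against the GC bins the ratios were 0.967, 0.972, 1.33 and 1.15, and only the interval of genes of 200 to 500 kb (1.12 to 1.57) lay above 1.

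*Myo16*, an unconventional myosin of neurons, held the most peaks, 5 within 85612 bp on chromosome 8, with scores of 30.92, 9.58, 7.67, 13.73 and 11.12. *Odz3*, a teneurin of synaptic adhesion, held 4, with scores of 25.86, 10.13, 36.33 and 22.26, and for each of them *Dctd*, a nucleotide deaminase, had the nearer start. *Thada* held 3 within 5421 bp, of which the outer ones scored 7.7 and 19.93. The other genes with 3 peaks were *Frmd4a*, *Rab3c*, a GTPase of synaptic vesicles, *Tbc1d5*, *Dscaml1*, an adhesion molecule, *Pde4d*, a cAMP phosphodiesterase, *Camk1d*, a calmodulin-dependent kinase, *Auts2*, a regulator of neuronal transcription, *Pde1a*, *Plxna4* and *Lsamp*. Their highest scores ranged from 11.89 in *Lsamp* to 37.18 in *Frmd4a*.

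The longest genes held few. *Gm20388* and *Fgfr2* are recorded as 4434882 and 3009069 bp long in this annotation, but only 623.2 and 519.6 kb of them lie over 100 kb from every start, since other genes start within them, and they held 2 and 1. *Dmd*, the dystrophin gene, *Cntnap2*, a neurexin relative, and *Dlg2*, a synaptic scaffold, held 1 each, with scores of 10.02, 8.56 and 16.12. *Ptprd*, with 2170.7 kb of eligible sequence, *Lrp1b*, *Macrod2* and *Nrxn3* held none.

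By function, the share of genes with eligible sequence that held a distal peak ranged from 1 of 28 to 18 of 52. Over all genes it was 177 of 1524 (11.6%). It was 18 of 52 for very long genes of the kind found at common fragile sites and 8 of 38 for synaptic adhesion molecules, whose median lengths are 851375.5 and 747251 bp. It was 12 of 48 for regulators of transcription and RNA and 4 of 29 for axon guidance, with medians of 342508.5 and 320621 bp. It was 3 of 34 for ion channels, 2 of 22 for cadherins and catenins and 1 of 28 for neurotransmitter receptors, with medians of 364831, 434137 and 353946 bp. Per Mb, regulators of transcription and RNA had 1.12 peaks, axon guidance 1.01, the very long genes 0.783, ion channels 0.579, synaptic adhesion 0.576, cadherins and catenins 0.216 and neurotransmitter receptors 0.121, against 0.879 over all genes. In 5 of the 7 classes fewer than 10 genes held a peak. The densities of cadherins and catenins and of neurotransmitter receptors rest on 2 peaks and 1 peak. No class was set against the GC bins. The classes were listed with earlier results of these data known, so their shares and densities are a description only.

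The hosts in each class can be named. In synaptic adhesion they were *Odz3*, *Dscaml1*, *Lsamp*, *Cadm2*, *Cntnap2*, *Kirrel3*, *Odz4* and *Sdk1*. In axon guidance they were *Plxna4*, a semaphorin receptor with 3 peaks, *Sema5b* with 2, *Sema6d* and *Slit3*. The ion channels were *Cacna1b* and *Ryr2*, the calcium release channel, with 2 each, and *Kcnmb2*. The receptor was *Gria1*, an AMPA receptor subunit, and the cadherins and catenins *Cdh13* and *Ctnna3*. Among regulators, *Tcf4*, a basic helix-loop-helix factor, held 2, and *Foxp1*, *Meis2*, *Msi2*, *Nfib*, *Rbfox1*, *Rbms1*, *Rbms3*, *Sox6*, *Tcf7l2*, *Tox* and *Tshz2* held 1 each. The very long genes were *Auts2*, *Pde4d* and *Tbc1d5* with 3, *Galntl6*, *Pard3*, *Pard3b*, *Ptprn2*, *Sgcz*, *Sorcs1* and *Wwox* with 2, and *Agbl4*, *Csmd1*, *Dlg2*, *Dmd*, *Fhit*, *Fstl4*, *Prkg1* and *Sgcd* with 1. The sites in *Cacna1b* and *Sgcz* reached scores of 52.03 and 61.56, the highest among the listed hosts.

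Starts of genes of other kinds were counted as well. A start of some annotated gene that is not protein-coding lay within 100 kb of 276 distal peaks (43.5%; 39.7 to 47.3%), and for the other 359 (56.5%; 52.7 to 60.3%) no gene of any kind started within 100 kb. The share of eligible sequence within 100 kb of such a start was not computed, so 43.5% has no background value. The midpoint of 13 distal peaks lay in a long intergenic non-coding RNA gene or a processed transcript gene, which gave 0.588 per Mb of such sequence, against 0.597 in all eligible sequence. A start of a gene of these 2 kinds lay within 100 kb of 89 distal peaks (14.0%; 11.5 to 16.9%) and of 40.7% of the other peaks. This contrast was not adjusted for the rule, which keeps distal peaks away from protein-coding genes.

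Distal peaks were spread unevenly over chromosomes. Chromosome 8 held 83 of them (13.1%; 10.7 to 15.9%), or 1.44 per eligible Mb, and 2.20 times the number that the GC bins would give (1.75 to 2.73). Chromosomes 19, 13 and 2 followed with ratios of 1.97, 1.73 and 1.55. Chromosome X held 4, or 0.0540 per Mb and 0.148 times the number given by GC (0.0404 to 0.379), and chromosomes 4 and 14 had ratios of 0.397 and 0.550. Chromosome 8 had the highest density of the other peaks as well, 3.10 per Mb, and chromosome X the lowest, 0.318. Chromosomes 13 and 19 did not stand out in this way among the other peaks. Each had 1.49 per Mb, close to the 1.48 per Mb of the rest of the sequence as a whole.

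**Figure D4:**
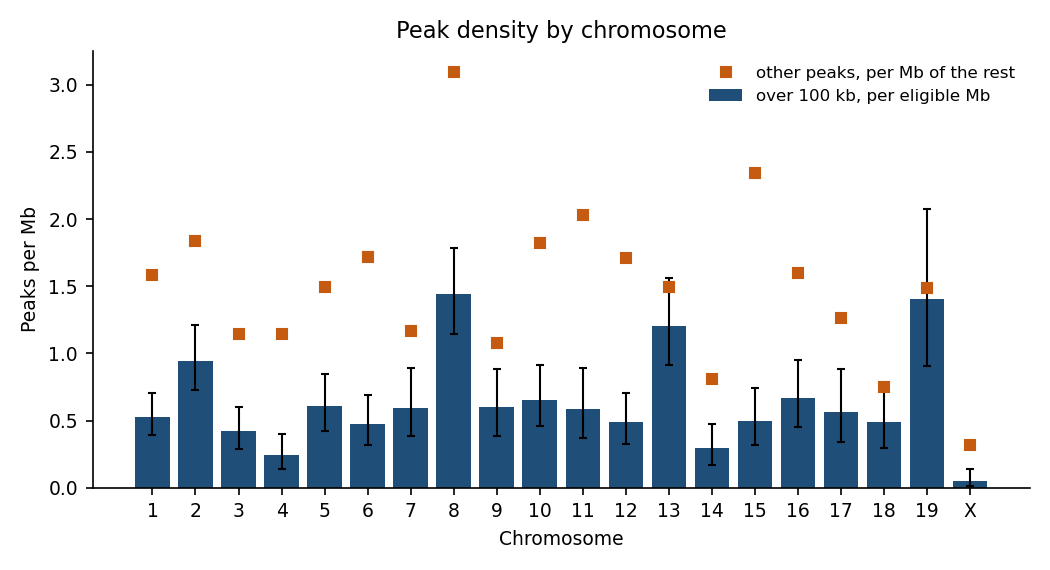
Distal peaks per Mb of eligible sequence on each chromosome (bars, with exact 95% Poisson intervals) and other peaks per Mb of the remaining sequence (squares). Chromosome 8 has the tallest bar, 1.44 per Mb, and the highest square, 3.10 per Mb, and chromosome X the lowest of both.

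The density on chromosome 8 was also computed without runs of neighbouring sites. On that chromosome 5 runs of at least 3 distal peaks, each within 100 kb of the next, held 22 of the 83. Without them the density was 1.07 per Mb. With every stretch of distal peaks within 100 kb of the next counted once, pairs included, it was 1.02 per Mb. On the other chromosomes, counted in that same way, it was 0.455 per Mb. The sites were concentrated in parts of the chromosome: 16 lay between 10 and 20 Mb, 18 between 30 and 40 Mb and 9 between 120 and 130 Mb, at 3.59, 3.03 and 3.50 per eligible Mb.

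Over all chromosomes, 204 distal peaks (32.1%; 28.6 to 35.9%) had another within 100 kb and 68 had one within 10 kb. They formed 517 separate stretches, of which 431 were single peaks, 65 were pairs and 21 held 3 or more, with 74 peaks in the last. Besides those at *Dusp4* and in *Myo16*, runs of 4 lay near *Cartpt*, near *Ptbp2*, a splicing regulator of neurons, between *Gpr133* and *Sfswap*, and near *Gm5087* within 6403 bp. Merging peaks within 10 kb of each other left 596 distal peaks.

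Short matches to the capture oligonucleotides were looked for because these oligonucleotides can pair with DNA. An exact match of at least 10 nt, on either strand, to any of the 4 *Paupar* oligonucleotides was present in 154 distal peaks (24.3%; 21.1 to 27.7%). It was present in 8.50% of the neighbouring regions of the same width (7.09 to 10.2%). For the other peaks the shares were 24.6% and 10.8%, close to those of the distal peaks. A match of at least 12 nt was present in 14 distal peaks (2.20%; 1.32 to 3.67%) and in 0.551% of neighbouring regions. Matches of 10 nt to the *LacZ* oligonucleotide were present in 3 distal peaks (0.472%) and in 1 neighbouring region (0.0787%). That is 1 oligonucleotide against 4, and the list kept only peaks called above the *LacZ* pull-down. The *LacZ* shares are therefore not a control for the *Paupar* matches.

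**Figure D5:**
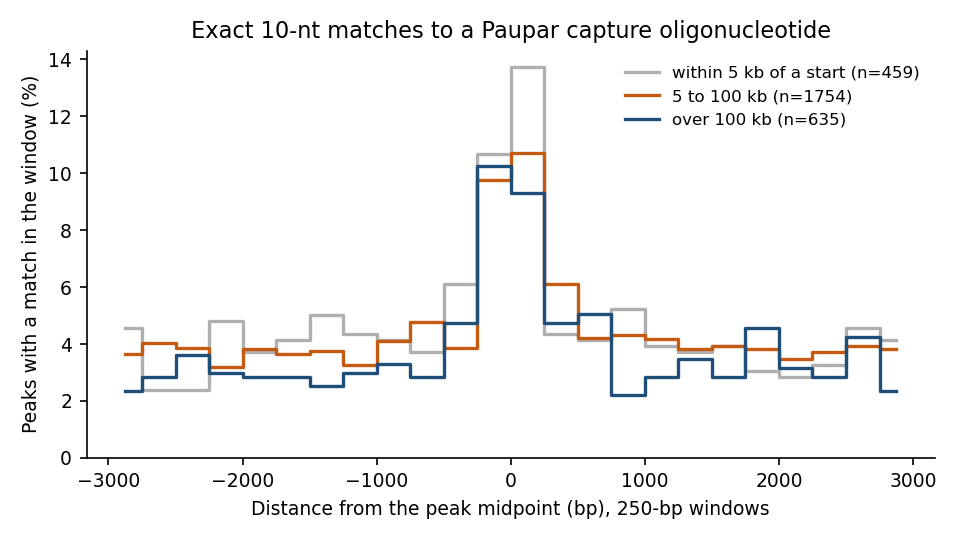
Share of peaks with an exact match of at least 10 nt to a *Paupar* capture oligonucleotide in windows of 250 bp around the peak midpoint, for peaks over 100 kb from a start, 5 to 100 kb from it and within 5 kb. All lines rise at the midpoint, for distal peaks to 10.2 and 9.29% in the central windows, against 2.2 to 5.04% in the windows beyond 250 bp. Of the 154 distal peaks with a match, 41.6% had it within 100 bp of the midpoint, against 39.4% with an even spread. Inside the peaks the matches were thus spread about evenly and not gathered at the midpoint.

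Each oligonucleotide contributed. The share of distal peaks with a match was 5.51% for oligonucleotide 254, 6.30% for 428, 6.46% for 2041 and 7.24% for 2067, against 1.73, 2.68, 1.97 and 2.76% of neighbouring regions. In peaks 5 to 100 kb from a start the shares were 8.32, 6.33, 6.50 and 5.07% in the same order. Within 5 kb they were 11.55, 5.01, 8.50 and 4.79%. The similar totals of distal and other peaks thus join shares that differ by oligonucleotide. Within an oligonucleotide the matches were uneven. For each, the stretch of 10 nt found in the most distal peaks was picked after the counts were seen and is shown with its oligonucleotide positions.
Oligonucleotide 254, nucleotides 11 to 20: cacccctgga
Oligonucleotide 428, nucleotides 15 to 24: caaggcagag
Oligonucleotide 2041, nucleotides 4 to 13: tcagaaactg
Oligonucleotide 2067, nucleotides 10 to 19: tcaaaatatc
These were present in 11, 12, 14 and 13 distal peaks of 635, and in 3, 3, 4 and 3 of 1270 neighbouring regions. No distal peak held any of the stretches that begin at nucleotides 7 to 15 of oligonucleotide 2041. These stretches were rare in the neighbouring regions too, each present in 0 to 3 of 1270.

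The share of peaks with a match differed little by score, although peaks with higher scores were wider. Matches were present in 28% of the 100 distal peaks with the highest scores (20.1 to 37.5%), whose median width was 1019.5 bp. The share was 24.9% at a score of at least 10 and 23.0% below, with median widths of 559 and 412 bp. A wider peak has more positions for a match, and no share per base was computed. Inside gene bodies the share was 20.8% and between genes 26.3%, with intervals that overlap (16.2 to 26.4% and 22.2 to 30.9%). The strongest distal peak had no match over 8 nt. Whether pairing of an oligonucleotide with DNA had a part in any of these sites was not tested, since the list has no value for a single oligonucleotide.

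Chosen short words were more frequent in the central 200 bp than in windows outside the peaks. CACCCC, on either strand, was in the central 200 bp of 20.6% of distal peaks (17.7 to 24.0%) and in 9.37% of windows of that size 1000 bp away. ATCATC was in 17.0% (14.3 to 20.1%) and 9.13%. In the other peaks the shares were 27.3 and 13.8% for CACCCC and 12.9 and 6.78% for ATCATC. Both words were chosen with earlier results of these data known, so their higher shares at the centre are not independent evidence. The central 200 bp of distal peaks also had a higher median GC content than the outer windows, 46% against 43%, which was not adjusted for. The word CACCCC lies in oligonucleotide 254, so its count and that of the matches are not independent. The PAX6 paired-domain site with at most 2 mismatches was in 9.61% of distal peaks (7.55 to 12.1%) and in 10.2% of their outer windows, against 9.76 and 8.92% for the other peaks. A match of letters is a description of the sequence and does not show binding.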

How the data were processed

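CHART-Seq libraries of N2A cells, 2 with *Paupar* oligonucleotides, 2 with the *LacZ* oligonucleotide and 1 of input DNA, were assigned by the labels. Per the study's methods, the authors aligned read pairs to mm9 using Bowtie and discarded reads without a unique best placement. MACS2 then compared each *Paupar* library with its own *LacZ* library and, separately, with input, and only peaks of both comparisons above a limit on q were retained. How the 2 *Paupar* libraries were joined is not stated. Versions of the tools are not given in the sources used here. The score was used as deposited by the authors. Its unit is not stated, and it served only to rank and filter. Sequence that reads cannot be placed in uniquely cannot hold a peak, and it was not removed from the eligible sequence.

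The midpoint of each peak was set against the starts of 22350 protein-coding genes of NCBIM37 (GENCODE M1) on 20 chromosomes. Each gene had 1 start, and 1 peak elsewhere was left out. Bases over 100 kb from every start and not ambiguous were eligible. Wilson and exact Poisson intervals (95%) cover counting error. The intervals of medians come from order statistics. Numbers given by GC are sums over 8 bins of 100 kb windows of eligible bases times the density of distal peaks in the bin, or, for the whole of the eligible sequence, of all peaks. Neighbouring regions are those of the same width directly on either side. Sequences of oligonucleotides came from the study's supplementary list. The steps recovered what was planted in simulated data. No test was run, because the list has no values per library.

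The distal peaks, gene lists and sequence words were chosen with earlier results of these data known. Named were the 5 highest scores, 3 widest, 3 farthest, 3 on each side of the limit, the top site in *Sox2ot*, 5 of the longest matches, with ties of 12 nt taken by score, the 10 genes with the most peaks, the 5 longest with one, all hosts of the listed classes, the 6 gaps with the most peaks, the 5 longest with and 3 longest without one, and listed regulators nearest to a peak. Genes beyond these, the exonic sites, the genes tied at 3 peaks, further long genes without a peak, further runs and the longest repeat, were named after their values were seen. Alternatives were a score of at least 10, other start sites, limits of 50 and 200 kb, merging within 10 kb, the nearest edge, other match lengths and windows, other distances between sites and GC strata. Gene expression after knockdown was not analysed here. Python 3.11.15, numpy 2.4.6, pandas 2.3.3, scipy 1.17.1 and matplotlib 3.10.9 were used.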

Additional observations from a re-analysis of the deposited data

How the results depend on the processing

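No paired analysis was possible because the deposited list has no values per library, and for the same reason no library could be left out in turn. Of 61 values under the alternatives, 38 stayed within the counting interval of the reported value, or within 1.5 times it for the number of distal peaks. That number was 418 with a score of at least 10, 359 with starts of genes of every biotype, 1101 with a limit of 50 kb and 303 with 200 kb. The share inside gene bodies was 23.4% with every annotated transcript start, 41.8% with 50 kb and 30.0% with 200 kb. The ratio of densities inside over outside was 1.27 with GC bins as strata, and stayed above 1 under all 8 alternatives tried. The median GC content was 46.6% with 50 kb and 44.5% with 200 kb. The share with a capture match was 54.6% for at least 9 nt, 8.82% for 11 nt, 2.20% for 12 nt and 10.2% in the central 200 bp. The share with another distal peak within 100 kb was 27.3% with a score of at least 10, 27.6% with genes of every biotype and 20.5% with 200 kb, and it was 10.7% within 10 kb and 65.5% within 1 Mb. The median score was 15.4 with scores of at least 10 and 11.26 with 200 kb, the median width 559 bp with scores of at least 10, and the share on chromosome 8 was 17.0% with genes of every biotype. Fewer peaks or longer matches are the alternatives' own construction, and other causes were not tested. Depth is unknown, so a stretch without a peak is not shown to be without *Paupar*.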
